A study of Homo sapiens with 6 samples.

Results

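The MCM genes encode the subunits of the replicative DNA helicase and a few proteins that work beside it. Here 9 of them were described out of 15894 genes measured in RKO, a line of human colon carcinoma cells: MCM2, MCM3, MCM4, MCM5, MCM6 and MCM7, which form the helicase, and MCM8, MCM10 and MCMBP. They were matched by gene symbol and had 32 of the 37458 probe sets that name a single gene. The group was chosen by the difference between shCIRC and shEV cells on these same arrays, in which MCM6 was higher and the others were lower, so their values are given as a description, with no test.

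The shCIRC cells were RKO cells carrying 1 short hairpin RNA directed against the circular RNA hsa_circ_0064559. The shEV cells were RKO cells carrying the control vector, for which the labels also give a nonsense hairpin sequence. The methods give transfection with a lipid reagent for both, although their section on the proliferation assay names lentiviral transduction. They describe stably transfected populations in which part of the cells may not have taken up the vector, without naming single clones. RNA of 3 samples per group was hybridized to Affymetrix PrimeView arrays, which read mRNA with sets of short probes, and the comparison asked which genes changed with the knockdown.

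MCM2 to MCM7 assemble into a ring of single copies of each protein. The ring is loaded onto replication origins before S phase by the origin recognition complex with CDC6 and CDT1, and it becomes an active helicase when CDC45 and the GINS proteins join it. Proliferating cells, colon carcinoma lines among them, keep these genes expressed, and E2F transcription factors are known to drive them at the entry into S phase.

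The 6 arrays were alike within groups. Signals correlated across genes with r of 0.998 to 0.999 between arrays of 1 group and of 0.987 to 0.988 between arrays of different groups, and the median SD of a gene was 0.06 in shCIRC and 0.05 in shEV on the log2 scale. Signals are log2 values normalized between arrays by the authors, so a difference of 1 is a doubling, and a fold change is the shCIRC mean minus the shEV mean with the standard error (SE) of the limma fit. With 3 arrays a group, the number of arrays limits the precision, and since separate cultures are not named in the labels, the errors and p-values cover only the spread among these samples, some or all of which may be technical. Of 8 colon epithelial markers 6 were in the annotated table, with a mean signal of 7.73 to 7.78 on shCIRC arrays and of 7.78 to 7.83 on shEV arrays. Single epithelial markers went both ways: the keratin KRT8 was at 8.23 in shCIRC and 7.70 in shEV, its partner KRT18 at 10.95 in shCIRC and 11.25 in shEV, and the adhesion molecule EPCAM at 8.08 in shCIRC and 8.54 in shEV. CDX2 was level at 8.16 in shCIRC and 8.17 in shEV. KRT19 was dim at 5.95 in shCIRC and 5.99 in shEV, and LGALS4 at 5.15 in shCIRC and 5.17 in shEV. The T cell marker CD3E was near the bottom of the range at 5.48 in shCIRC and 5.51 in shEV, though above LGALS4. The endothelial marker VWF, at 6.64 in shCIRC and 6.68 in shEV, was above KRT19. The circular RNA itself has no matched probe set, so its level is not shown by the arrays.

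MCM6 was higher in shCIRC cells while the 8 other genes were lower. Of the 9 members, 8 were called lower and 1 higher at an adjusted p under 0.05, where 24.7% of all genes were called lower and 22.8% higher. Those shares depend on the scaling, since 3928 genes were lower and 3618 higher with the deposited signals but 3000 lower and 5059 higher with arrays centred on their median, and the members' count was the same under both. On all 3 shCIRC arrays those 8 genes lay below all 3 shEV arrays, and MCM6 lay above, as did 29.0% of all genes below and 27.0% above. The median fold change on the log2 scale was -0.60 over the members and -0.62 over the 8 without MCM6, against 0.00 over all genes. These counts follow from how the genes were chosen, and nothing is read from them.

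MCM2 was the most reduced of the ring subunits. Its brightest probe set read 9.47, 9.60 and 9.53 on the shCIRC arrays, against 10.82, 10.78 and 10.87 on the shEV arrays. The means were 9.54 ± 0.06 in shCIRC and 10.82 ± 0.05 in shEV (SD, n = 3 each), a fold change of -1.29 on the log2 scale (SE 0.04), so that shCIRC cells kept 0.41 of the shEV signal. The groups were far apart, with 1.17 between the highest shCIRC and the lowest shEV array. All 4 probe sets of MCM2 were lower, by -1.33 to -1.11, and 40 genes with MCM2 among them, 0.252% of all measured, had a fold change at or below its own.

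MCM5, which sits next to MCM2 at the gate through which the ring opens around DNA, had a fold change close to it. It read 7.41, 7.61 and 7.39 on the shCIRC arrays, against 8.77, 8.82 and 8.55 on the shEV arrays. The means were 7.47 ± 0.12 in shCIRC and 8.71 ± 0.14 in shEV (SD, n = 3 each), with a fold change of -1.24 (SE 0.09). The groups did not overlap, though the arrays within each group spread more widely for MCM5 than for any other member. It rests on 1 probe set of middling brightness, since 50.3% of all genes were brighter. The difference in fold change between MCM2 and MCM5 was -0.04 (SE 0.12), within its error. The SE of a difference between subunits, here and below, is from the spread of within-array differences in each group, not from limma.

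MCM3 and MCM4 fell by about as much as each other and by less than MCM2 and MCM5. MCM3 read 10.15, 10.21 and 10.17 in shCIRC, against 10.82, 10.84 and 10.83 in shEV, a fold change of -0.65 (SE 0.03). Its 4 probe sets lay between -0.65 and -0.52. MCM4, with MCM6 and MCM7 part of the core that unwinds DNA on its own in vitro, read 11.14, 10.95 and 11.10 in shCIRC, against 11.76, 11.65 and 11.68 in shEV, a fold change of -0.63 (SE 0.06). Its groups were also apart, but its 5 probe sets ran more widely than those of MCM3, between -0.92 and -0.25, and the brightest gave neither end. The difference in fold change between MCM3 and MCM4 was -0.02 (SE 0.08), and that between MCM2 and MCM3 was -0.64 (SE 0.04).

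MCM7 was the least reduced. It read 12.73, 12.77 and 12.77 in shCIRC, against 13.19, 13.18 and 13.22 in shEV, so shCIRC cells kept 0.736 of the shEV signal and the fold change was -0.44 (SE 0.03). Its 4 probe sets stayed between -0.50 and -0.31, and its groups were separated by 0.41. Of all genes, 7.37% fell at least as far as MCM7. The difference in fold change was -0.21 (SE 0.02) for MCM3 minus MCM7 and -0.19 (SE 0.08) for MCM4 minus MCM7.

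MCM6, the remaining subunit of the ring, moved in the other direction. Its brightest probe set read 10.88, 10.95 and 10.91 on the shCIRC arrays, against 10.31, 10.31 and 10.25 on the shEV arrays. The means were 10.91 ± 0.04 in shCIRC and 10.29 ± 0.04 in shEV (SD, n = 3 each), a fold change of 0.62 (SE 0.04), or 1.54 times the shEV signal. All shCIRC arrays lay above all shEV arrays, with 0.57 between the nearest pair, and 375 genes with MCM6 among them, 2.36% of all measured, had a fold change at least as high.

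**Figure D1:**
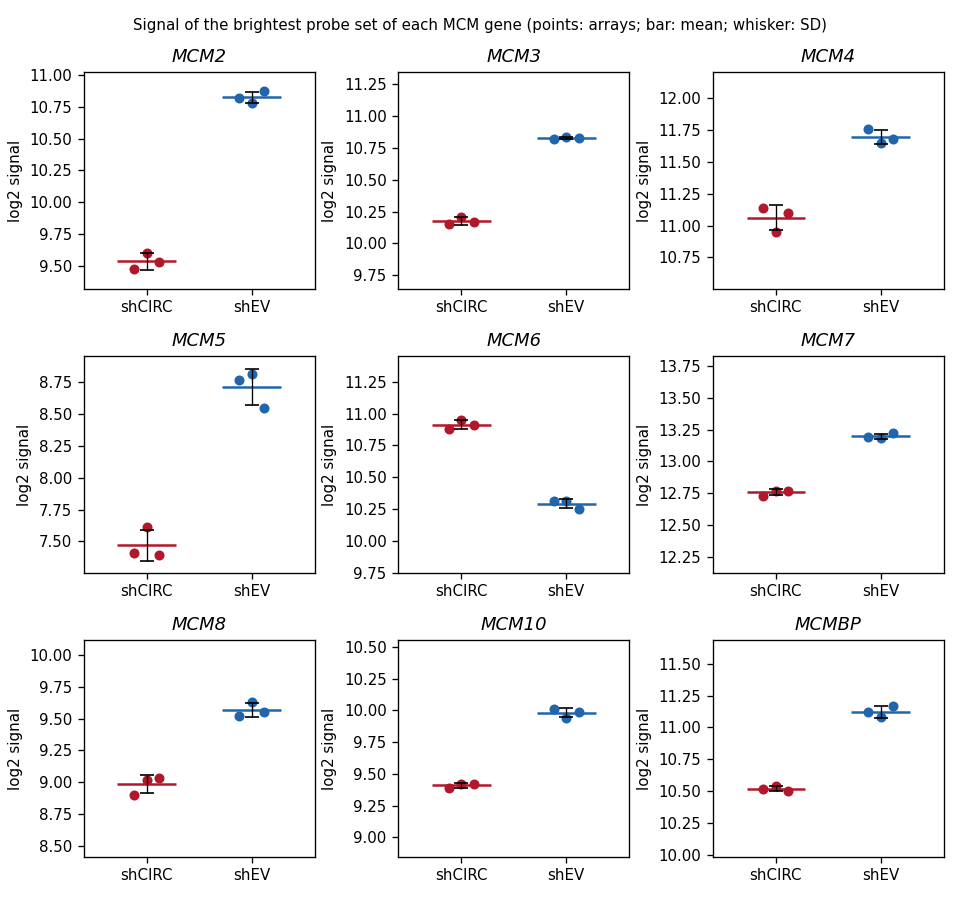
Log2 signal of the brightest probe set of each MCM gene on every array, with shCIRC left of shEV. Points are arrays, n = 3 a group, bars are means and whiskers are SDs. MCM6 lies higher in shCIRC and the 8 other genes lie lower, MCM2 and MCM5 by the most.

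The 3 probe sets of MCM6 did not rise alike. The second read 9.97, 9.99 and 9.90 in shCIRC, against 9.05, 9.01 and 9.07 in shEV, a fold change of 0.91 (SE 0.04) and 1.88 times the shEV signal. The dimmest read 7.19, 7.17 and 7.16 in shCIRC, against 7.02, 7.07 and 7.14 in shEV, a fold change of 0.10 (SE 0.04) that was not called. Its groups did not overlap either, although the nearest arrays were almost level. The deposited annotation aligns the sequence behind the second probe set to chromosome 2 from 136623684 to 136634032 on the minus strand, 10.3 kb at the end of the gene where transcription starts. The brightest and the dimmest are both placed over 36.9 kb, from 136597197 to 136634058. The sources used here do not give the build of that annotation, and it does not say in which exon or UTR the probes lie. The 3′ minus 5′ difference of the array controls, a measure of RNA integrity and labelling, also moved between the groups. For GAPDH it was -0.30 ± 0.02 in shCIRC and -0.16 ± 0.02 in shEV, and for ACTB -0.01 ± 0.03 in shCIRC and 0.13 ± 0.02 in shEV (SD, n = 3 each). Its part in the difference between the MCM6 probe sets was not tested.

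Counted one by one, 29 of the 32 member probe sets were called lower, 2 higher and 1 not at all, where 24.6% of all probe sets were called lower and 25.6% higher. The 29 probe sets of the 8 other genes ran from -1.33 to -0.23 in log2 fold change, and each had all shCIRC arrays below all shEV arrays. The 3 probe sets of MCM6 had all shCIRC arrays above, though for the dimmest the nearest arrays were almost level. By brightest probe set, 29.0% of all genes lay below in this way and 27.0% above. The shares over all probe sets were not computed, and nothing is read from these counts.

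**Figure D2:**
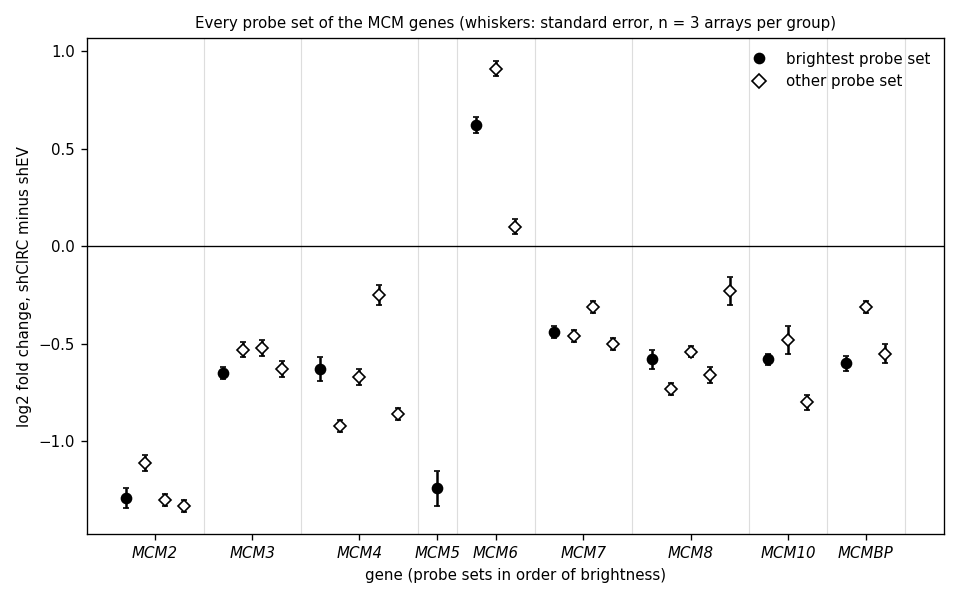
Log2 fold change, shCIRC minus shEV, of each of the 32 probe sets, by gene, with filled circles for the brightest probe set of a gene and open diamonds for the others. The MCM6 probe sets lie at 0.10, 0.62 and 0.91, and the other 29 lie between -1.33 and -0.23.

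Within each array the split between MCM6 and the other ring subunits was steady, and a difference of changes taken on 1 array is not altered by adding a constant to that array's log2 signals. Relative to the shEV mean of each gene, MCM6 stood at 0.59, 0.66 and 0.62 on the shCIRC arrays, and the mean of MCM2, MCM3, MCM4, MCM5 and MCM7 stood at -0.87, -0.82 and -0.86. MCM6 minus that mean was therefore 1.46, 1.48 and 1.47 on the shCIRC arrays, against 0.00, 0.02 and -0.02 on the shEV arrays. The group values were 1.47 ± 0.01 in shCIRC and 0.00 ± 0.02 in shEV (SD, n = 3 each). Against each subunit alone, the fold change of MCM6 exceeded that of MCM7 by 1.07 (SE 0.04), and those of MCM2 and MCM5 stood below it by the widest margins (MCM2 minus MCM6 -1.91, SE 0.05; MCM5 minus MCM6 -1.86, SE 0.08). The arrays measure pooled RNA, so fewer cells in S phase and less MCM RNA per cell cannot be told apart.

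**Figure D3:**
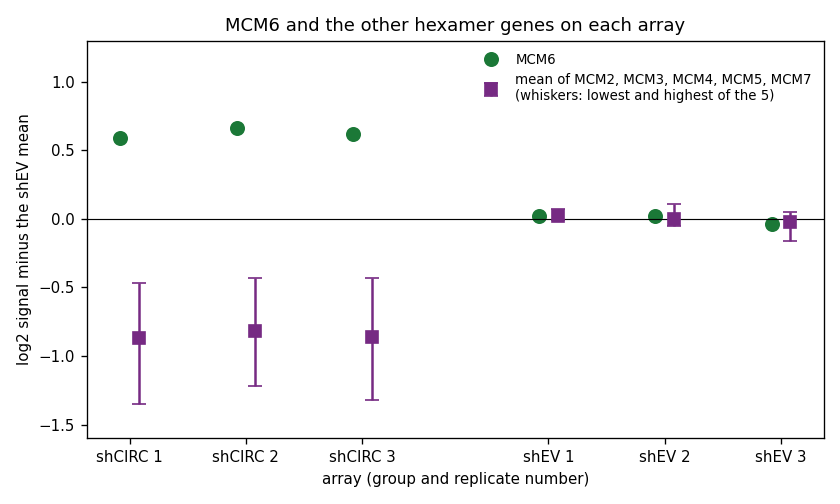
Change of log2 signal from the shEV mean on each of the 6 arrays, for MCM6 and for the mean of the 5 other ring subunits, with whiskers from the lowest to the highest of the 5. On the shCIRC arrays MCM6 lies at 0.59 to 0.66 and the mean of the others at -0.87 to -0.82, and on the shEV arrays both lie near 0.

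Outside the ring, the fold changes of the 3 other members were nearly equal. MCM8, which forms a second helicase with MCM9 that acts in homologous recombination, read 8.90, 9.02 and 9.03 in shCIRC, against 9.52, 9.63 and 9.55 in shEV, a fold change of -0.58 (SE 0.05). MCM10, which is no relative of the ring subunits by sequence and helps the loaded helicase to start, read 9.39, 9.42 and 9.42 in shCIRC, against 10.01, 9.94 and 9.99 in shEV, also -0.58 (SE 0.03). MCMBP, a binding protein that protects newly made MCM subunits, read 10.52, 10.54 and 10.50 in shCIRC, against 11.12, 11.08 and 11.17 in shEV, a fold change of -0.60 (SE 0.03). In each of the 3 genes the groups were apart and every probe set was lower, from -0.73 to -0.23 for the 5 of MCM8, from -0.80 to -0.48 for the 3 of MCM10 and from -0.60 to -0.31 for the 3 of MCMBP.

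Promoters of MCM6 and of 3 reduced ring subunits are shown because each carries E2F letters while MCM6 moved opposite to the others. They are from RefSeq, build GRCh38.p14, and run from 250 bases before to 50 after the annotated start. That table held a promoter for 7 of the 9 members, those other than MCM4 and MCM5. Capitals mark the E2F letters TTTCCCGC, TTTCGCGC, TTTGCCGC or TTTGGCGC on either strand, and where matches on both strands overlap the whole stretch is in capitals. The windows are chr2:135876394-135876693 on the minus strand for MCM6, chr3:127598161-127598460 on the plus strand for MCM2, chr6:52284693-52284992 on the minus strand for MCM3 and chr7:100101348-100101647 on the minus strand for the outermost of 3 starts of MCM7.
MCM6 promoter: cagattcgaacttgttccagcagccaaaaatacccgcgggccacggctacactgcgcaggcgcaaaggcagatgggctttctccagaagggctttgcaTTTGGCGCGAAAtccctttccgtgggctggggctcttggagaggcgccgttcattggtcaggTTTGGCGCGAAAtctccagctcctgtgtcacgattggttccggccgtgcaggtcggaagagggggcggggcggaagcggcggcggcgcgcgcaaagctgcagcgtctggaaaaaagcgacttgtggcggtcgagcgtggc
MCM2 promoter: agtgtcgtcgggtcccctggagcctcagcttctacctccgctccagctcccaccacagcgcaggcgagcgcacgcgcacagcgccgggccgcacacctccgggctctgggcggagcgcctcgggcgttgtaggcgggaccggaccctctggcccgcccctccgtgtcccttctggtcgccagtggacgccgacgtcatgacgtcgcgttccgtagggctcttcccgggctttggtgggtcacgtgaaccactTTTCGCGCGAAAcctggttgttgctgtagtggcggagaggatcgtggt
MCM3 promoter: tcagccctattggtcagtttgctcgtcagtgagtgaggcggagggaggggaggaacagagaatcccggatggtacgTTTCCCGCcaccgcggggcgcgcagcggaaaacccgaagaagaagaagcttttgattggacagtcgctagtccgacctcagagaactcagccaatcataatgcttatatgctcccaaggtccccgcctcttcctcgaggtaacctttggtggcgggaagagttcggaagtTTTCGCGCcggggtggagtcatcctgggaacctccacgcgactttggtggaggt
MCM7 promoter, outermost start: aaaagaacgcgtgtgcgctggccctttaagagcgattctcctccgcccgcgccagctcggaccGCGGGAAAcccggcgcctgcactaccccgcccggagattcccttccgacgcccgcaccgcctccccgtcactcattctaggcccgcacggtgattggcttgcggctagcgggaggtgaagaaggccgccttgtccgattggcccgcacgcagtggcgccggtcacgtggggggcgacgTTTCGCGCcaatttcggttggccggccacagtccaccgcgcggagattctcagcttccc

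MCM6 had the most E2F matches of the 7 members with a promoter in the table. Counted as separate stretches it had 2, as did MCM3 and the outermost MCM7 start. It carries the element TTTGGCGCGAAA in 2 copies, each of which reads as a match on both strands, so 4 overlapping matches were counted. That element was found in 4 promoters of the table and in 2 copies in 1 of them, that of MCM6. MCM2 carries the related TTTCGCGCGAAA once, just after its start, again with overlapping matches on both strands, and MCM3 and the outermost MCM7 start carry 2 separate matches each. The other 2 starts of MCM7 have 0 matches. MCM8 and the downstream of 2 starts of MCMBP have 1 match each, the upstream MCMBP start has 0, and MCM10 has 0. Among the 35116 promoters of all genes in the table, 3.31% held the E2F letters, and 0.145% held them 2 or more times. Overlapping matches on both strands were counted separately there too, so a single stretch like that of MCM2 enters the second share. The NF-Y letters CCAAT, searched on both strands, were in 34.6% of promoters, and they occur in MCM6, MCM3, MCM7, MCM8 and MCM10 but not in MCM2 or MCMBP. The letters TTTGAA of the cell cycle homology region, also searched on both strands, were in 15.2% of promoters and in none of those of the 7 members. A match describes letters and is not a bound site.

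**Figure D4:**
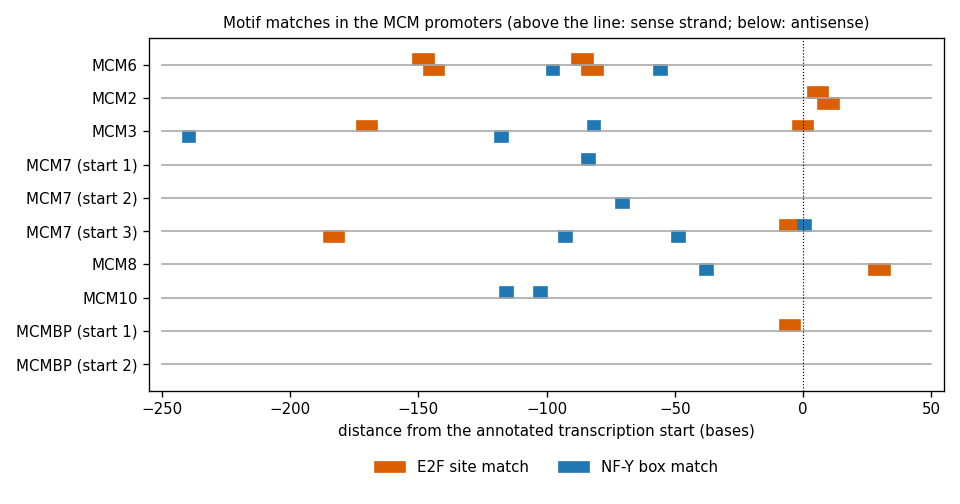
Positions of E2F and NF-Y matches in the promoters of the members, in bases from the annotated transcription start, with sense matches above each line and antisense matches below. MCM6 has 4 E2F matches in 2 overlapping pairs upstream of its start, and MCM2 has a pair just after its start.

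Genes with E2F letters were found in both directions. Of 738 measured genes with the letters in a promoter 33.6% were called lower and 24.8% higher, against 25.6% lower and 23.9% higher of the 12516 measured genes that have a promoter in the table. The median fold changes were -0.03 with the letters and 0.00 over those genes. Of 35 genes with the letters 2 or more times, overlapping matches included, 14 were called lower and 10 higher, with MCM6 among the 10. Those ran from PIBF1 at 0.86 (SE 0.04) to TIPIN at 0.12 (SE 0.03), whose call depended on single arrays, as given below. AP4M1, whose gene overlaps MCM7, was at 0.40 (SE 0.05).

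Origin licensing genes, whose proteins load the MCM ring, were mostly lower with the reduced subunits. Of 9 measured, 7 were called lower, 1 higher and 1 was not called, where 24.7% of all genes were lower and 22.8% higher. Their median fold change was -0.56 on the log2 scale, against 0.00 over all genes. CDT1, which carries the ring to the origin, had a fold change of -0.87 (SE 0.04, adjusted p = 1.3e-05), and its inhibitor GMNN, geminin, of -0.45 (SE 0.03, adjusted p = 4.6e-05). CDC6, the loading ATPase, stood at -0.56 (SE 0.03, adjusted p = 2.6e-05). Of the origin recognition subunits, ORC1 was lowest at -0.88 (SE 0.05, adjusted p = 2.3e-05), followed by ORC6 at -0.58 (SE 0.06, adjusted p = 0.00026), ORC2 at -0.56 (SE 0.05, adjusted p = 9.5e-05) and ORC3 at -0.39 (SE 0.04, adjusted p = 0.00032). ORC4 went the way of MCM6. It averaged 10.69 ± 0.05 in shCIRC and 10.29 ± 0.03 in shEV (SD, n = 3 each), a fold change of 0.39 (SE 0.04, adjusted p = 0.00016), and its probe sets ran from 0.18 to 0.43. ORC5 was not called, at 0.07 (SE 0.03, adjusted p = 0.092), though its 3 probe sets ran from 0.07 to 0.37. By the RNA of the brightest probe set, ORC4 was thus the only origin recognition gene called higher, where 22.8% of all genes were. That depended on the processing. With arrays centred on their median, or with the methods' t-test, 7 of the 9 licensing genes were lower and 2 higher, ORC5 being the second.

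Genes for helicase activation and for proteins that travel with it at the fork were lower in 16 of 17 cases by the brightest probe set. With 1 higher, the median was -0.50, and over all genes 24.7% were lower and 22.8% higher. Among the lower genes, the probe sets of GINS1 differed in sign, from -0.40 to 0.05, and those of TIMELESS ran from -0.47 to -0.08. CLSPN, claspin, the checkpoint mediator at the fork, had the lowest fold change of -1.07 (SE 0.09, adjusted p = 9.1e-05). Next was DBF4B, an activator of the kinase CDC7, at -0.98 (SE 0.05, adjusted p = 1.4e-05), though its 7 probe sets ran from -0.98 to -0.09. CDC7, which phosphorylates the MCM ring, stood at -0.59 (SE 0.04, adjusted p = 4.3e-05). GINS2, part of the active helicase, was at -0.73 (SE 0.04, adjusted p = 1.5e-05), and RECQL4, which is needed for its start, was at -0.73 (SE 0.03, adjusted p = 1.1e-05). The 1 higher gene was TIPIN, the partner of TIMELESS in the fork protection complex, at 0.12 (SE 0.03, adjusted p = 0.014), and its probe sets differed in sign, from -0.04 to 0.12. That call was lost without shCIRC replicate 3 or without shEV replicate 1.

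Of 8 measured genes for taking the helicase off DNA, 3 were called lower, 2 higher and 3 were not called, with a median of -0.04. These counts are near the 24.7% lower and 22.8% higher over all genes. The cofactor NPLOC4 was at -0.66 (SE 0.04, adjusted p = 1.7e-05), the segregase VCP at -0.26 (SE 0.03, adjusted p = 0.00043), and the ubiquitin ligase TRAIP at -0.49 (SE 0.04, adjusted p = 5.3e-05), with probe sets from -0.49 to 0.08. UBXN7, a VCP cofactor, was higher by 0.17 (SE 0.04, adjusted p = 0.0084), with probe sets from 0.03 to 0.60. CUL2, the cullin of the ligase that marks MCM7 for removal, was higher by 0.25 (SE 0.03, adjusted p = 0.00068). LRR1, which directs that cullin to the helicase, stood at 0.05 (adjusted p = 0.48), UFD1 at 0.02 (adjusted p = 0.68) and FAF1 at -0.09 (adjusted p = 0.08), none of them called.

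Of 4 further relatives 3 had probe sets in the annotated data, with a median of -0.02, and 1 was called lower, 1 higher and 1 was not called, where 24.7% of all genes were lower and 22.8% higher. MCM9, the partner of MCM8, averaged 7.05 ± 0.09 in shCIRC and 6.77 ± 0.17 in shEV (SD, n = 3 each), a fold change of 0.28 (SE 0.09, adjusted p = 0.04), but its 3 probe sets ran from -0.21 to 0.28. The MCM9 call was lost without shCIRC replicate 1 or 3 and without shEV replicate 1 or 2. HROB, which recruits the MCM8 and MCM9 helicase, was lower at -0.44 (SE 0.05, adjusted p = 0.00037). MCM3AP, named for binding MCM3, was not called at -0.02 (SE 0.04, adjusted p = 0.65).

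The E2F, DP and pocket protein genes, which encode the regulators of MCM transcription, had 8 of 13 called lower, 2 higher and 3 not called, with a median of -0.28, against 24.7% lower and 22.8% higher over all genes. Both an activator and its restraint were lower. E2F1 stood at -0.71 (SE 0.05, adjusted p = 4.4e-05) and E2F2 at -0.92 (SE 0.05, adjusted p = 1.7e-05), with its other probe set at -0.28. RB1, the pocket protein that holds them back, was at -0.80 (SE 0.04, adjusted p = 9.1e-06), but its probe sets ran from -0.80 to 0.13. The repressor class members E2F4 and E2F5 stood at -0.42 (SE 0.04, adjusted p = 0.00012) and at -0.58 (SE 0.03, adjusted p = 2.5e-05). E2F6, a repressor that works without pocket proteins, was higher by 0.24 (SE 0.06, adjusted p = 0.019), with probe sets from 0.07 to 0.47. TFDP2, a dimer partner of E2F proteins, was higher by 0.13 (SE 0.03, adjusted p = 0.013), with probe sets at -0.13 and 0.13. The count of higher genes fell to 1 without shCIRC replicate 1 or without shCIRC replicate 3.

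**Figure D5:**
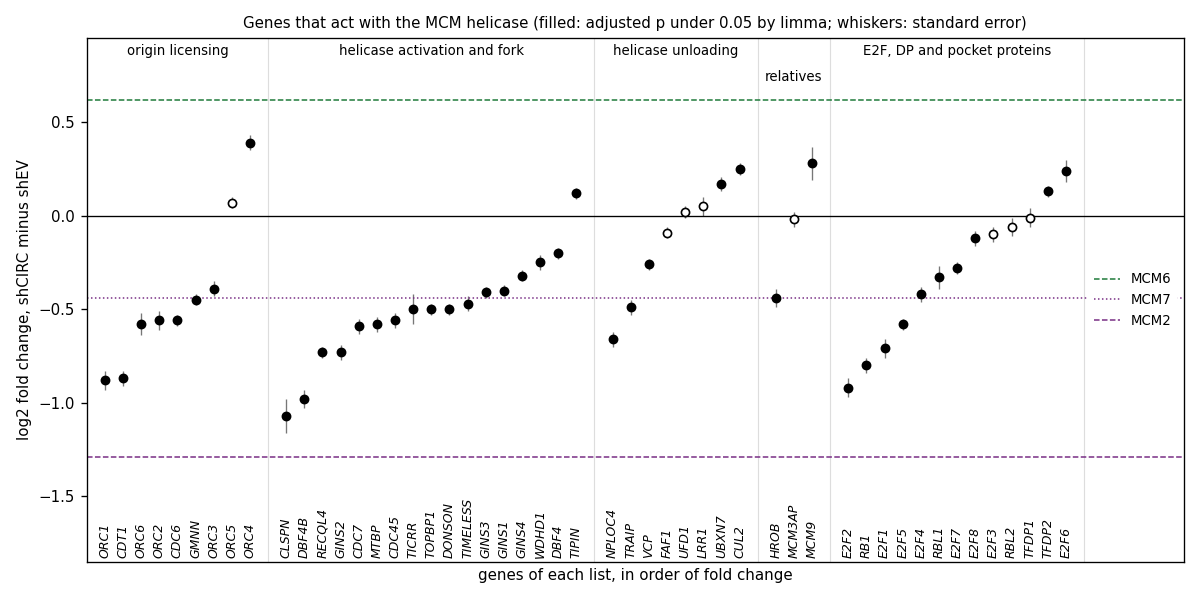
Log2 fold change, shCIRC minus shEV, of the genes that act with the MCM helicase, in 5 lists, with whiskers for the standard error and filled points for an adjusted p under 0.05 by limma. Lines mark MCM6 at 0.62, MCM7 at -0.44 and MCM2 at -1.29. By brightest probe set, no gene of the lists lies as high as MCM6, the nearest being ORC4 at 0.39. Other probe sets, not drawn, reached 0.60 for UBXN7 and 0.47 for E2F6.

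Neighbouring genes on the chromosome did not move as the MCM genes did in every case. Over all genes, 24.7% were called lower and 22.8% higher. The gaps to the MCM genes ran from 0 bases for AP4M1 to 77775 for RASD2. Beside MCM6, LCT, lactase, was dim and not called at -0.02 (adjusted p = 0.85). Beside MCM7, which was lower, a neighbour was higher. AP4M1, an adaptor subunit in vesicle transport whose gene overlaps MCM7, read 9.50, 9.56 and 9.51 in shCIRC, against 9.03, 9.18 and 9.16 in shEV, higher by 0.40 (SE 0.05, adjusted p = 0.00046), while COPS6, a signalosome subunit, was not called at 0.06 (adjusted p = 0.20). Both neighbours of MCM2 were lower with it, PODXL2 at -0.69 (SE 0.04, adjusted p = 3.1e-05) and TPRA1 at -0.22 (SE 0.05, adjusted p = 0.011). Of the neighbours of MCM5, HMOX1, heme oxygenase, was lower at -0.22 (SE 0.03, adjusted p = 0.0018) and RASD2 was not called at 0.01 (adjusted p = 0.87). Neither TRMT6, at 0.13 (adjusted p = 0.076), nor CRLS1, at -0.03 (adjusted p = 0.48), was called beside MCM8.

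The genes with profiles most like that of MCM6 were ranked by the root mean square difference of log2 signals over the 6 arrays, each gene centred on its own mean. BAX, which promotes apoptosis, was nearest at 0.0112, followed by TMEM30A, a flippase subunit, at 0.0175, MCCC1, a leucine catabolism enzyme subunit, at 0.0175, NGRN at 0.0177 and SPRYD7 at 0.0202. Their fold changes lay between 0.60 and 0.65. For MCM2 the nearest was TRAPPC1, of a vesicle tethering complex, at 0.0163, and then SERPINH1, a collagen chaperone, at 0.0436, CYSTM1 at 0.0441, FOXM1, a transcription factor of cell division genes, at 0.0454 and NDUFB11, a respiratory chain subunit, at 0.0461. The 6 arrays fall into 2 groups, so a gene with a group difference of similar size ranks high by this measure.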

How the data were processed

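Gene expression was measured with 6 PrimeView arrays of RKO cells, 3 shCIRC and 3 shEV, from 6 µg of RNA each, grouped by their labels. Signals were deposited as log2 values, after quantile normalization by the authors in R, for 49395 probe sets, of which 39269 recur with equal signals in an annotated table. The submitters' processing notes name GCOS 1.4, and the sources used here do not state the background correction or the summary over probes. Columns of the authors' own comparison (p-value, FDR, fold changes, direction) were not used. Array medians lay between 7.69 and 7.74.

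Control probe sets (73), probe sets of several genes (1539) and of none (199) were left out, as were those outside the annotated table. Symbols were updated through the Entrez number with the RefSeq table of GRCh38.p14, in which 78 probe sets had no match and kept theirs. The brightest probe set stood for each gene. Differences were fitted in R 4.3.3 with limma 3.58.1 (lmFit, eBayes) on all 6 arrays, with Benjamini-Hochberg adjustment over 15894 genes (or over all probe sets) and a threshold of 0.05, and the script was tested on simulated data. The members and lists were chosen with earlier results of these data known. Named were all members, every gene of a list of up to 9, otherwise the 5 largest changes past the threshold with every gene against the majority, the nearest protein-coding gene on each side of 5 members, and the 5 genes most like MCM6 and MCM2. Of the neighbours, 1 is not reported here. PIBF1, MMS22L and TONSL were named after their values were seen. Alternatives were other scalings, probe set rules, filters and tests, the replicate number as a block, leaving out each array and, added after seeing the data, the other MCM6 probe sets.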

Additional observations from a re-analysis of the deposited data

How the results depend on the processing

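All 125 member fold changes under 14 settings kept their sign. In 13 of the 14, 8 members were called lower and 1 higher, the other being the filter on genes above the median signal, which removed MCM5. That filter, the replicate block and a change of test cannot alter a fold change, so there the sign was fixed in advance. Other scalings, the mean of probe sets and leaving out an array could alter it. Members were also chosen by their difference on these arrays, so nothing is read from the kept signs. MCM6 ranged from 0.54 to 0.69 on the log2 scale. MCM6 minus the mean of the 5 other ring subunits, 1.47, was 1.38 with the mean of all probe sets of a gene, 1.46 to 1.48 when an array was left out, and, with the other MCM6 probe sets, chosen after seeing the data, 0.95 for the dimmest and 1.76 for the second. Higher licensing genes numbered 2 in place of 1 with arrays centred on their median, the mean of probe sets, the filter, the methods' t-test with Benjamini-Hochberg adjustment, or limma with trend and robust. Higher activation genes numbered 0 in place of 1 with the mean of probe sets, and 0 to 1 without an array. Higher relatives numbered 0 in place of 1 with the mean of probe sets, the filter and the methods' t-test, and 0 to 1 without an array, and lower relatives 0 in place of 1 with the filter. Of the E2F list, 5 in place of 8 were lower with the filter, and 1 in place of 2 higher with the methods' t-test and 1 to 2 without an array. The filter tests fewer genes, and for the others the cause was not tested. Centring the arrays on their median moved the median of all genes to 0.066 and the calls to 3000 lower and 5059 higher. With the replicate block 3842 genes were called lower and 3591 higher, and 8 members lower and 1 higher. Deviations of samples with the same number correlated at 0.07 to 0.10, so the numbers were not taken to pair them, though 6 of 6 arrays correlated best with their own number.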

Other observations

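The deposited annotation was searched for the MCM complex, the CMG complex (the helicase with CDC45 and GINS) and the MCM8-MCM9 complex, after the data had been seen. At least 1 of these terms was given to 11 of the measured genes. Of these genes, 8 are among the MCM genes described here and MCM9 was given with their relatives. The others are MMS22L and TONSL, whose proteins form a complex that binds MCM proteins and newly deposited histones at damaged forks, with log2 fold changes, shCIRC minus shEV, of -1.0 (SE 0.06) and -0.71 (SE 0.04).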
